A study of Mus musculus with 34 samples.

Results

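The enzymes that make, break down and respond to calcium, inositol trisphosphate and cyclic nucleotides were followed on microarrays of mouse hippocampus and neocortex. A gene was included if its symbol on the array platform began with Camk, Ppp3, Ppp1r1, Prkc and an isoform letter, Prka with c or r, Prkg, Pde and a digit, Adcy, Gucy, Itpr, Itpk or Plcb. This gave 58 of the 8251 named genes. They had 79 probe sets, and 17 genes had several, for which the brightest over all arrays is given. The symbol rule uses no measured level. Of the 58 genes, 48 encode an enzyme, an enzyme subunit or the inositol trisphosphate receptor channel. Another 7 encode regulators of protein phosphatase 1. The last 3 only carry the name of an enzyme: Adcyap1, the neuropeptide PACAP, Adcyap1r1, its receptor, and Pde4dip, a centrosomal and Golgi protein also called myomegalin.

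In a neuron, calcium that enters through glutamate receptors and voltage-gated channels, or leaves internal stores through inositol trisphosphate receptors, binds calmodulin. Calmodulin then activates kinases such as CaMKII, the phosphatase calcineurin, and certain cyclases and phosphodiesterases. Adenylyl and guanylyl cyclases make cyclic AMP and cyclic GMP, which protein kinases A and G read and phosphodiesterases remove. Phospholipase C beta makes inositol trisphosphate and diacylglycerol, the activator of protein kinase C. In hippocampus and cortex these enzymes are best known for their part in synaptic plasticity and in the transcription that follows synaptic activity.

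The arrays came from male mice that were given intraperitoneal injections at an age of 23 days and whose tissue was taken at 30 days. Kainate, which activates ionotropic glutamate receptors and provokes seizures, was injected at 15 mg/kg in 5 mice. A group of 6 mice received nicotine, which opens nicotinic acetylcholine receptors, at 10 mg/kg, and 6 control mice received saline. Every mouse was injected 3 times, 2 h apart, and per the series design the animals sampled were those that survived. The strain is not given in the sources used here. There were 17 hippocampal and 17 neocortical arrays, 34 in all, in 6 groups. The labels do not mark which hippocampal and neocortical arrays came from the same mouse. The counts of mice take each mouse as giving 1 array per region. Correlations between arrays ran from 0.916 to 0.969. The median signal ran from 403.4 to 438.5 on kainate, 395.2 to 434.6 on nicotine and 381 to 391.2 on saline hippocampal arrays. Region labels fitted known markers: of those above the filter level in both saline groups, 7 of 7 hippocampal marker genes were higher and 5 of 5 neocortical markers lower in the saline hippocampus than in the saline neocortex. Dsp, Prox1, Cux2 and Tnnc1 were tested only through the region where they are high and are not counted. The marker lists were chosen with earlier results of these data known, so they are not an independent check of the labels. Striatal markers summed to between 567.1 and 1520 in any array over 5 measured genes. Ebf1, Isl1 and Rgs9 lay below the filter level in all 6 groups, while Drd2 and Tac1 did not, and Tac1 was lower in the hippocampus than in the neocortex in all 3 treatments (log2 fold changes -1.18, -0.84 and -0.79 with kainate, nicotine and saline).

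Signals below are the deposited linear intensities, and fold changes were taken on log2(signal + 16), where the added 16 makes changes of dim genes look smaller than they are. A probe set was tested if its mean on that scale passed the 30th percentile of the arrays compared, a level of 128 to 131, and was called at a limma adjusted p under 0.05 over all 8695 tested probe sets. In the hippocampus 49 of the 58 genes were tested. The 9 below the level were the cyclases Gucy2c and Gucy2e, the phosphodiesterases Pde1c, Pde6b and Pde6g, the phospholipase Plcb3, the phosphatase regulator Ppp1r12c, and the kinases Prkch and Prkg2. Signals of different probe sets cannot be set against each other, so levels are compared within a gene. The exception is marker genes, whose sums over the same genes are compared between groups. Such a sum is weighted to its brightest genes.

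Replicates were tightest for bright genes. The mean SD within groups, on the log2 scale, was 0.084 for Prkar1a, 0.105 for Prkcb and 0.116 for Camk2b. It reached 0.784 for Gucy2c and 0.769 for Pde1c, which both lay below the filter level. Over the 58 genes the median SD within a group lay between 0.22 and 0.282. The map of group levels shows that most genes stayed close to their own mean in all 6 groups, and that the columns differ most by region.

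**Figure D1:**
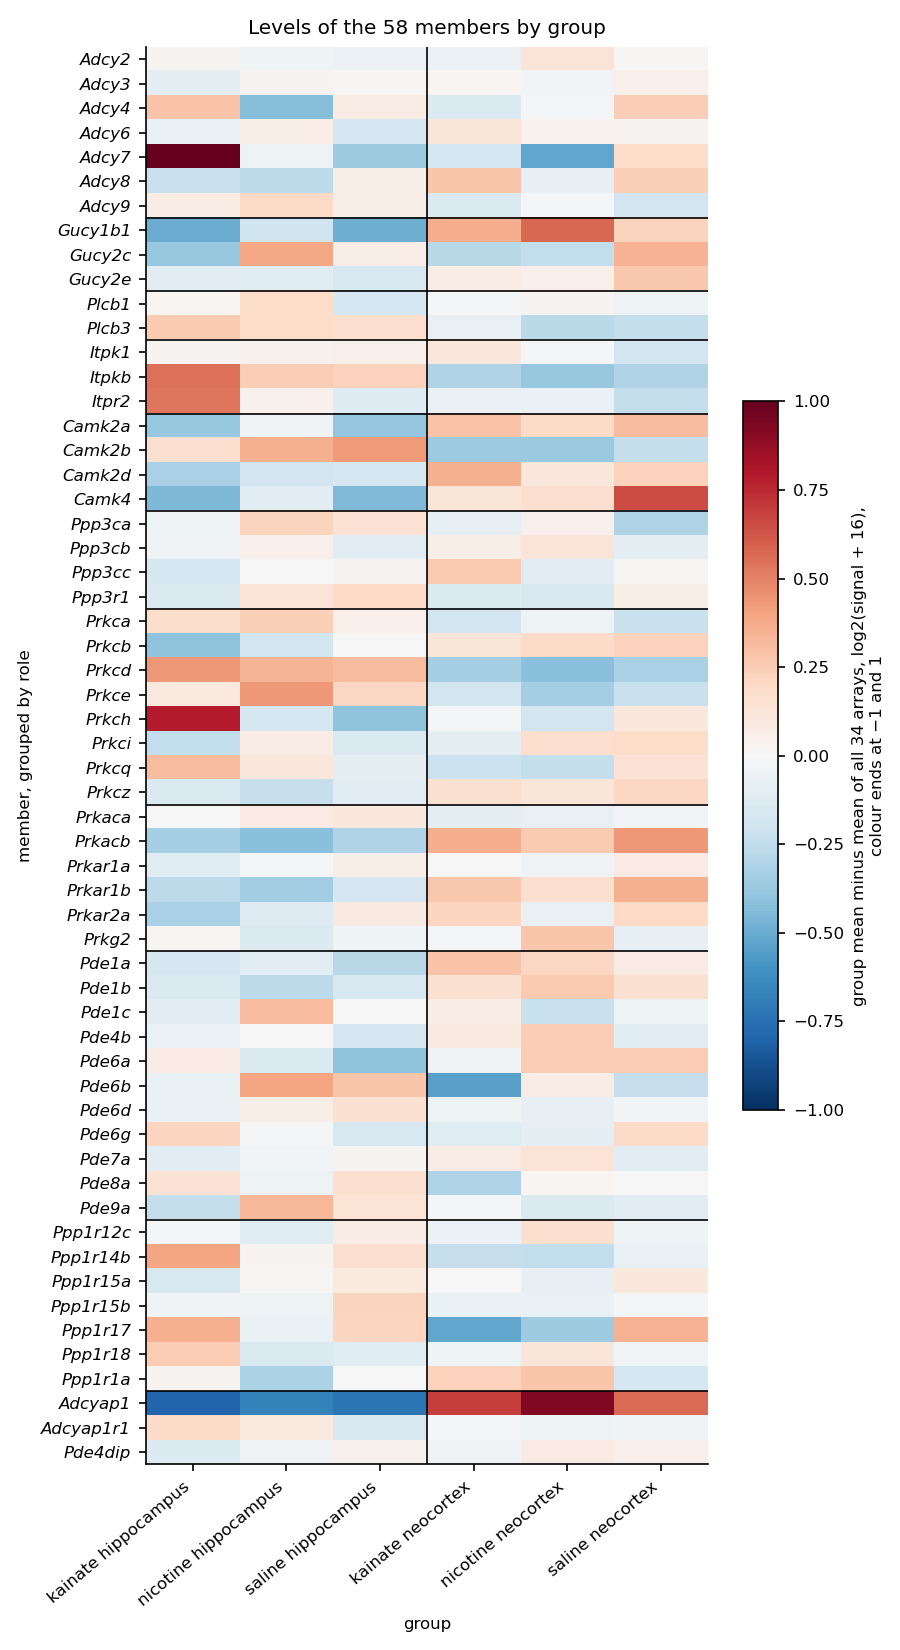
Levels of the 58 genes (rows, grouped by role) in the 6 groups (columns, kainate, nicotine and saline for hippocampus, then neocortex), as the group mean minus the mean of all 34 arrays on log2(signal + 16). Adcyap1 is low in all 3 hippocampal groups and high in all 3 neocortical groups, and Adcy7 is high in the kainate hippocampus.

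Kainate was compared with saline in the hippocampus, the region where this drug is known to injure neurons. Adcy7, an adenylyl cyclase that calcium does not stimulate directly, rose 2.7-fold. Prkcb, the calcium- and diacylglycerol-dependent protein kinase C beta, fell 1.33-fold, and Ppp3r1, the calcium-binding regulatory subunit of calcineurin, fell 1.26-fold. These were the only called genes, 3 of 49 tested (6.12%), beside 2.79% of all probe sets. The higher call, 1 of 49, stands beside a background of 1.84%, and the 2 lower calls beside 0.955%. The median log2 fold change of the 49 was -0.02, against 0.01 over all probe sets. The count was 5 without kainate hippocampus array 3, and 5 (1 higher and 4 lower) with each array centred on its median.

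The stretches before the transcription starts of these 3 genes are shown because cyclic AMP and calcium signalling converge on the cyclic AMP response element (CRE), which CREB binds. The 250 bases upstream of each start are from RefSeq promoter windows of build GRCm38.p6, read 5′ to 3′ on the gene's strand. Adcy7 is at chr8:88282742-88282991 on the plus strand, Ppp3r1 at chr11:17159048-17159297 on the plus strand and Prkcb at chr7:122288875-122289124 on the plus strand. Adcy7 has 3 listed windows, and the only one with a core CRE motif is shown, so the motif in it follows from that choice. Capitals mark the core CRE motif TGACG and the GC box GGGCGG, on either strand, where neighbouring matches may overlap.
Adcy7: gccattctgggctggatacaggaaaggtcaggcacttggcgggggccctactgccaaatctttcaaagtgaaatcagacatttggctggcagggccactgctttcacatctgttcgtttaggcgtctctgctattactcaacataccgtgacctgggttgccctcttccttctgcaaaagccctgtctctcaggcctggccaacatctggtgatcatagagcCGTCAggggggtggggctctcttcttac
Ppp3r1: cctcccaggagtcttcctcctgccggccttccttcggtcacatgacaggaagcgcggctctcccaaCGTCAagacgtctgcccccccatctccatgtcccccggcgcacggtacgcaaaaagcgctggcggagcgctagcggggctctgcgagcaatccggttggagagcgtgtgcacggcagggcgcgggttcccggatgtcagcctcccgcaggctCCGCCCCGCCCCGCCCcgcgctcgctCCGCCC
Prkcb: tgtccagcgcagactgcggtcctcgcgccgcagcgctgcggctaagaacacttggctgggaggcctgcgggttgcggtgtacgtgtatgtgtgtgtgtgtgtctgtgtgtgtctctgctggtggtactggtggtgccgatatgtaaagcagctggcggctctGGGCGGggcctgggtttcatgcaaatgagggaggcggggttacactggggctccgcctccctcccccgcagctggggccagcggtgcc
Adcy7 has 1 core CRE motif, 28 bases before the start, and Ppp3r1 has 1, 184 bases before the start, with 4 GC boxes. Prkcb has no core CRE motif in this window and 1 GC box. The full palindrome TGACGTCA, which contains the core motif on each strand, was in none of the 3 windows shown. Windows were listed for 41 of the 58 genes. The core motif was in 20 of their 74 windows (27%), against 17.8% of all 32851 windows, and the GC box was in 52.7% against 32.7%. The full palindrome was in 3 of the 74 windows (4.05%), against 1.55% of all windows. Counted per gene over any of its windows, the core motif was in 39% of the 41 against 19.8% of all genes with windows. For the GC box it was 75.6% against 35.4%. The 41 genes had 74 windows, while all 27025 genes had 32851. More windows per gene make a match in any of them likelier, so these shares per gene are not on equal terms. A match is a run of letters and was not tested for binding.

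Adcy7 had signals of 319.2, 489.3, 299.2, 481.6 and 466.5 in the 5 kainate hippocampi. In the 6 saline hippocampi it ran from 37 to 227.8 with a median of 175.5. The lowest kainate array was brighter than the highest saline array. The means were 411.2 ± 93.7 with kainate (SD, n = 5) and 155.9 ± 68.9 with saline (SD, n = 6). The log2 fold change was 1.43 ± 0.37 (SE, limma adjusted p = 0.0377). The gene is dim, and the call was lost without saline array 2, 3 or 4 or kainate array 1, 2, 4 or 5, where limma adjusted p-values ran from 0.0564 to 0.101. Arrays were also grouped into clusters by their control probe sets, which are not a batch named in the labels. The call on Adcy7 was lost with no filter on low values (0.0511), with quantile normalization (0.0772), without the arrays outside the 3 large control clusters (0.0692) and in the largest such cluster alone (0.267).

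Prkcb had signals of 14680, 13200, 16900, 14710 and 14740 in the kainate hippocampi. It ran from 18430 to 21980, with a median of 19170, in the saline hippocampi. Every kainate array lay below every saline array. The means were 14850 ± 1320 with kainate (SD, n = 5) and 19700 ± 1320 with saline (SD, n = 6). The log2 fold change was -0.41 ± 0.07 (SE, limma adjusted p = 0.00142). A dimmer probe set of Prkcb gave -0.15 ± 0.10 (limma adjusted p = 0.54), so this fall was seen by 1 of its probe sets.

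Ppp3r1 had signals of 21870, 23450, 27160, 21180 and 22550 in the kainate hippocampi. In the saline hippocampi it ran from 26520 to 32640 with a median of 29420. The groups overlapped through kainate array 3 alone, and the other 4 kainate arrays lay below all saline arrays. The means were 23240 ± 2340 with kainate (SD, n = 5) and 29340 ± 2000 with saline (SD, n = 6), with a log2 fold change of -0.34 ± 0.07 (SE, limma adjusted p = 0.00473). The call was lost with quantile normalization (-0.27, limma adjusted p = 0.0761). The catalytic subunits of calcineurin, the phosphatase that Ppp3r1 belongs to, gave log2 fold changes of -0.20 ± 0.12 for Ppp3ca, 0.08 ± 0.15 for Ppp3cb and -0.20 ± 0.18 for Ppp3cc, and none was called.

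**Figure D2:**
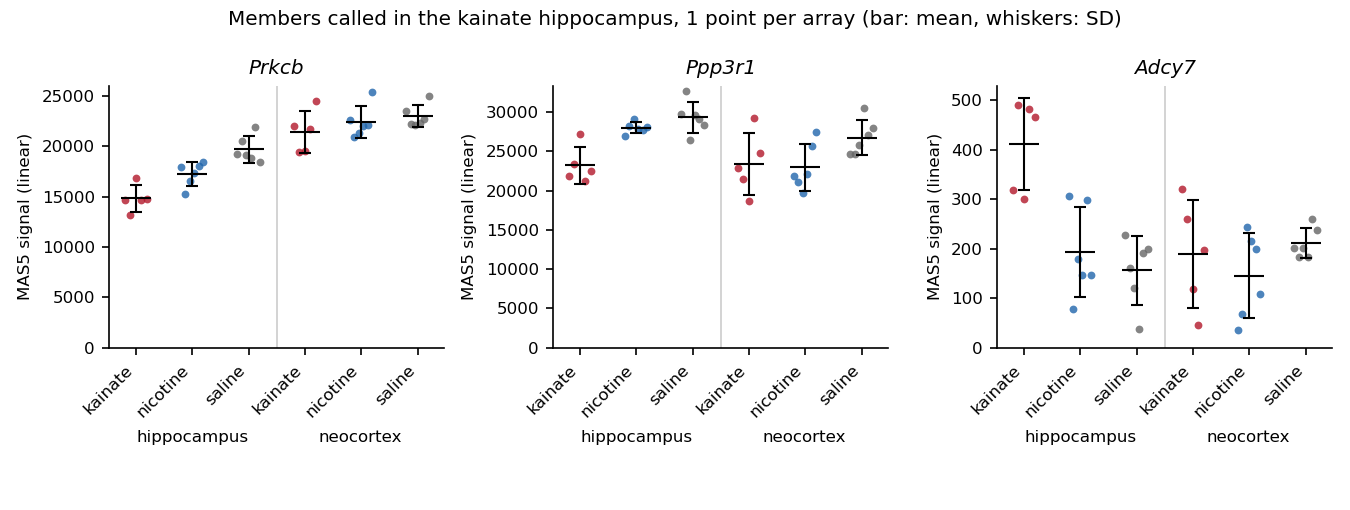
Signals of Prkcb, Ppp3r1 and Adcy7 on a linear axis from 0 (1 point per array, bar for the mean, whiskers for the SD) in the kainate, nicotine and saline groups of hippocampus and neocortex. In the hippocampus the kainate arrays of Prkcb lie below and those of Adcy7 above all saline arrays, while those of Ppp3r1 overlap through 1 array.

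Some cell type markers also differed between kainate and saline in the hippocampus. In the kainate hippocampus 10 of 10 tested microglia and macrophage markers above the filter level in both groups rose, with a median log2 fold change of 1.78. Aif1 and Lyz2 were tested only through the kainate arrays, where they are high, and are not counted among the 10. The 14 measured, Aif1 and Lyz2 included, summed to 49260 to 78510 with kainate and to 17660 to 20340 with saline. Fcer1g and Ptprc lay below the filter level in both groups. Astrocyte markers rose in 5 of 9 tested, and their sum ran from 152100 to 184700 with kainate and from 97110 to 110200 with saline. Of 9 tested neuronal markers 1, Slc32a1, fell, and the sum ran from 74420 to 85550 with kainate and from 79550 to 95820 with saline. The neuronal sums of these groups overlapped. Beside these marker counts, 1.84% of all probe sets were called higher and 0.955% lower. The part of these markers in the results on Adcy7, Prkcb and Ppp3r1 was not tested. In whole tissue, fewer cells of a type and less RNA per cell cannot be told apart.

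Among the cyclases, the other 6 adenylyl cyclases had log2 fold changes between -0.28 ± 0.28 for Adcy8, a calcium-stimulated isoform, and 0.21 ± 0.28 for Adcy4. Gucy1b1, a subunit of the nitric oxide receptor guanylyl cyclase, gave -0.01 ± 0.17. Plcb1, the phospholipase C beta isoform of most forebrain neurons, gave 0.19 ± 0.09. Itpr2, an inositol trisphosphate receptor that releases stored calcium, gave 0.66 ± 0.20 and missed the threshold (limma adjusted p = 0.0795). Its signals were 984.1, 1095, 594.7, 884.8 and 927 with kainate, against 335.2 to 732.4 with saline (median 565). Kainate array 3 was the only kainate array inside the saline range. A dimmer Itpr2 probe set gave 0.24 ± 0.28 (limma adjusted p = 0.771).

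Among the effectors, Camk2b, the beta subunit of CaMKII, had signals of 17890, 18940, 19700, 15880 and 16280 with kainate and of 18100 to 24560 with saline (median 21620). The groups overlapped, and its log2 fold change of -0.27 ± 0.08 missed the threshold (limma adjusted p = 0.0668). Camk2a, Camk2d and Camk4 gave 0.01 ± 0.28, -0.15 ± 0.29 and -0.01 ± 0.21. Protein kinase A subunits lay between -0.41 ± 0.22 for Prkar2a and -0.03 ± 0.11 for Prkacb, and protein kinase C isoforms other than beta between -0.11 for Prkce and Prkci and 0.40 ± 0.23 for Prkcq. The 8 tested phosphodiesterases lay between -0.38 ± 0.40 for Pde9a and 0.48 ± 0.35 for Pde6a. None of these was called.

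The 6 tested regulators of protein phosphatase 1 held no called gene. Ppp1r18, an actin-binding targeting subunit also called phostensin, had signals of 2709, 2756, 2842, 2919 and 2747 with kainate, against 1947 to 2670 with saline (median 2066). Its groups did not overlap, but the log2 fold change of 0.38 ± 0.11 missed the threshold (limma adjusted p = 0.0866). With Prkcb and Adcy7 it made 3 of 49 genes with no overlap between groups, beside 3.5% of all probe sets. Unadjusted p-values were under 0.05 for 9 of the 49, beside 14.2% of all probe sets. Prkch, protein kinase C eta, was below the filter: it had 39.2 to 203.7 with kainate (median 138) and 26.5 to 76.5 with saline (median 47.15), so its groups overlapped and it was not tested.

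**Figure D3:**
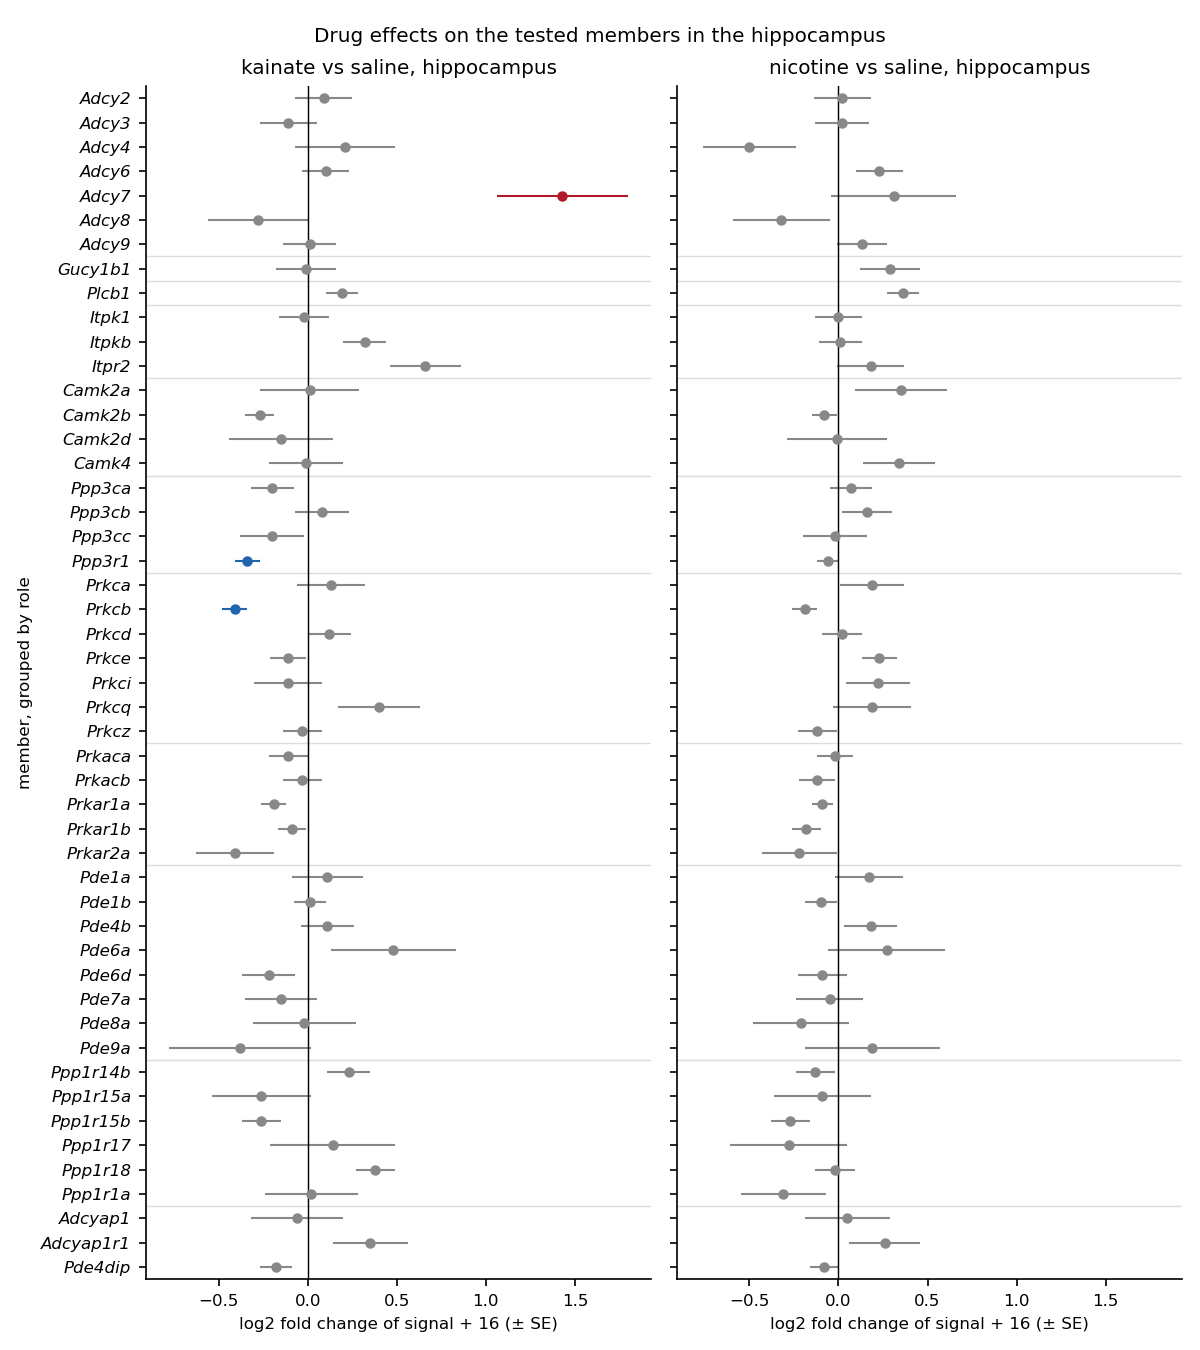
Log2 fold changes (points, with SE) of the 49 tested genes, grouped by role, for kainate over saline (left) and nicotine over saline (right) in the hippocampus, with called genes in red (higher) or blue (lower). Adcy7 at 1.43, Ppp3r1 at -0.34 and Prkcb at -0.41 are the coloured points, all with kainate.

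Kainate in the neocortex was compared with saline in the same way. No gene was called among the 50 tested by limma, where 0.0115% of all probe sets were called. Unadjusted p-values were under 0.05 for 5 of the 50, beside 5.57% of all probe sets. The smallest adjusted p-values, 0.811 each, belonged to Camk4, a nuclear kinase that phosphorylates CREB, at -0.53 ± 0.19 and Ppp1r1a, an inhibitor of protein phosphatase 1 that protein kinase A switches on, at 0.41 ± 0.15. Camk4 had 400.4, 196, 395.6, 474.6 and 424.3 with kainate, against 423.8 to 693.2 with saline (median 533.4), and the groups overlapped. Ppp1r17, a substrate of protein kinase G, gave -0.87 ± 0.35 (limma adjusted p = 0.856), and its kainate arrays, from 79.8 to 177.3, lay below its saline arrays, from 195.2 to 363. It was the only such gene of the 50, beside 0.564% of all probe sets.

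The 3 genes that changed in the kainate hippocampus had neocortical log2 fold changes of -0.36 ± 0.43 for Adcy7, -0.20 ± 0.10 for Ppp3r1 and -0.10 ± 0.07 for Prkcb. The difference of the kainate effect between regions was tested itself, and none of 49 genes was called by limma, beside 0.794% of all probe sets (0.725% higher, 0.069% lower). Unadjusted p-values were under 0.05 for 5 of 49, beside 8.98%. Prkcb had the smallest adjusted p, with an effect lower in the hippocampus by -0.30 ± 0.10 on the log2 scale (95% interval -0.50 to -0.11, limma adjusted p = 0.212). Adcy7 gave 1.80 ± 0.59 (0.60 to 2.99, limma adjusted p = 0.223) and Ppp3r1 -0.14 ± 0.12 (-0.39 to 0.12, limma adjusted p = 0.802). So the kainate effect was not shown to differ between the regions for any of the 3, and the intervals include large differences for Adcy7.

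Nicotine was compared with the same saline arrays. None of 49 genes was called by limma in the hippocampus, where 0% of all probe sets were called, and unadjusted p-values were under 0.05 for 5 genes, beside 5.8% of all probe sets. Log2 fold changes ran from -0.50 ± 0.26 for Adcy4 to 0.36 ± 0.09 for Plcb1. Plcb1 had signals of 3939 to 5630 with nicotine (median 4862) and 3478 to 4119 with saline (median 3754). The groups overlapped, and the limma adjusted p was 0.851. The dimmer Plcb1 probe sets gave 0.23 ± 0.14 and, for the dimmest, -0.10 ± 0.19, neither called. Ppp1r15b, a phosphatase 1 subunit that reverses the stress block of translation, was the only gene whose groups did not overlap, at 808.9 to 1077 with nicotine and 1104 to 1332 with saline (limma adjusted p = 0.851, beside 0.15% of all probe sets with no overlap). Adcy7, Prkcb and Ppp3r1 gave 0.31 ± 0.35, -0.19 ± 0.07 and -0.06 ± 0.06 with nicotine.

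In the neocortex nicotine gave no called gene of 50 by limma, again with 0% of all probe sets called, and 7 genes had an unadjusted p under 0.05, beside 9.6%. The smallest adjusted p, 0.37, belonged to Ppp3ca, the alpha catalytic subunit of calcineurin, at 0.35 ± 0.10. It had 8550 to 12320 with nicotine (median 11350) and 7575 to 9983 with saline (median 8534), and the groups overlapped. Next came Ppp1r1a at 0.45 ± 0.14 (limma adjusted p = 0.391) and Camk4 at -0.48 ± 0.18 (limma adjusted p = 0.418). The Camk4 signals were 331 to 459.8 with nicotine (median 370) and 423.8 to 693.2 with saline (median 533.4). Drug and saline values of Camk4 overlapped here as with kainate, and both comparisons use the same saline arrays. The nicotine effect differed between regions for none of 49 genes (limma, smallest adjusted p 0.994), beside 0% of all probe sets, with an unadjusted p under 0.05 for 3 genes, beside 3.77%.

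Between regions more of these genes were called than with either drug. Hippocampus was compared with neocortex within each treatment, so the group means of the 3 comparisons share no arrays. The filter and the estimate of the spread came from all 34 arrays, so the 3 comparisons are not independent of each other. Pairs of arrays from 1 mouse are not marked in the labels, and all arrays were taken as independent. With kainate 14 of 49 genes were called (28.6%), 7 higher and 7 lower in the hippocampus, beside 13% of all probe sets (6.81% higher, 6.22% lower). With nicotine it was 12 of 49 (24.5%), 5 higher and 7 lower, beside 9.61% (4.69% higher, 4.92% lower). With saline it was 14 of 49 (28.6%), 5 higher and 9 lower, beside 10.5% (5.36% higher, 5.19% lower). Centring each array on its median gave 4 higher and 10 lower with kainate, and 5 higher and 6 lower of 11 with saline. The kainate count was 9 without kainate neocortex array 4, kainate hippocampus array 1 or kainate hippocampus array 5. Groups did not overlap for 12, 10 and 10 genes with kainate, nicotine and saline, beside 9.99%, 5.98% and 6.21% of all probe sets.

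The same 11 genes, 22.4% of the 49, were called in all 3 treatments, beside 5.06% of all probe sets. Camk2b, Prkcd, Prkce and Itpkb were higher in the hippocampus, and Prkacb, Prkar1b, Gucy1b1, Prkcb, Prkcz, Pde1b and Adcyap1 were lower. All 14 genes called with saline had the same sign with both drugs, and of all 917 probe sets called with saline 857 did so. In 5 genes the 17 hippocampal arrays lay wholly beyond the 17 neocortical arrays: Camk2b, Prkcd and Prkce above, Prkacb and Adcyap1 below. These are 10.2% of the 49, beside 1.94% of all probe sets. Some oligodendrocyte, astrocyte and neuronal markers also differed by region. With saline, 3 of 8 tested oligodendrocyte and 5 of 9 tested astrocyte markers were called higher in the hippocampus. Of 9 tested neuronal markers 2, Nefm and Snap25, were called lower. The background was 5.36% higher and 5.19% lower of all probe sets. With saline, astrocyte markers summed to 97110 to 110200 in hippocampus and 81480 to 96730 in neocortex, oligodendrocyte markers to 50500 to 69660 and 44180 to 49870, and neuronal markers to 79550 to 95820 and 90820 to 102900. The neuronal sums of the regions overlapped. The part of these markers in the region differences was not tested.

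**Figure D4:**
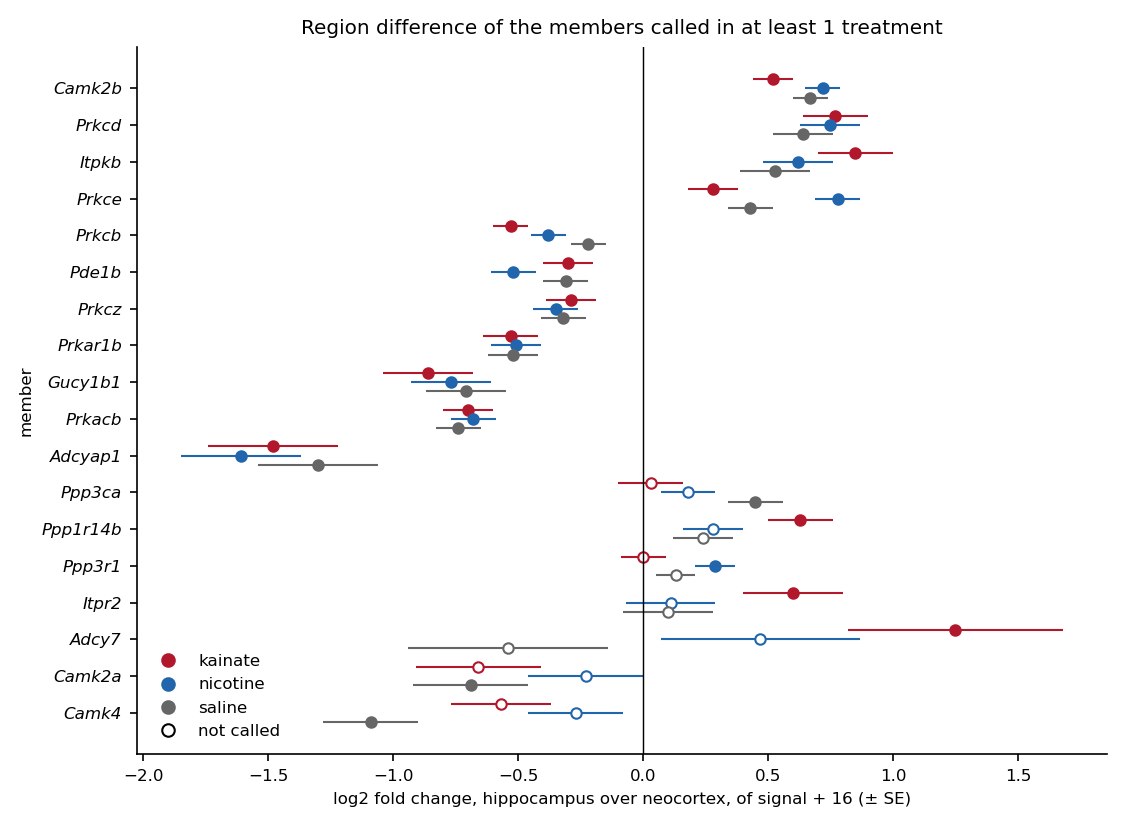
Log2 fold changes of hippocampus over neocortex (points, with SE) within kainate, nicotine and saline mice for the 18 genes called in at least 1 treatment, where open points were not called. The upper 11 genes are called in all 3 treatments, and the lower 7 in 1 treatment each.

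The calmodulin kinases split. Camk2b ran from 15880 to 24560 in hippocampus (median 19700, 17 arrays), against 10450 to 14430 in neocortex (median 12700, 17 arrays). The regions did not overlap. Its log2 fold changes were 0.52 ± 0.08, 0.72 ± 0.07 and 0.67 ± 0.07 (SE) with kainate, nicotine and saline, with limma adjusted p-values of 7.52e-06, 2.09e-09 and 1.16e-08. Camk2a, the alpha subunit of the same holoenzyme, was lower in the saline hippocampus, at 766.4 to 3831 (median 2360), than in the saline neocortex, at 2305 to 4843 (median 3458). The groups overlapped widely, and the fold change was -0.69 ± 0.23 (limma adjusted p = 0.044). Its other probe set gave -0.77 ± 0.18 (limma adjusted p = 0.00247). The call on the brighter probe set was lost without saline neocortex array 1, 2, 3, 4 or 6 or saline hippocampus array 1, 2 or 6, with limma adjusted p-values of 0.0528 to 0.176. It was also lost with the control cluster as a block (-0.49, limma adjusted p = 0.075). Camk2a gave -0.66 ± 0.25 with kainate (limma adjusted p = 0.0771) and -0.23 ± 0.23 with nicotine (limma adjusted p = 0.68). Camk4 had 183.7 to 339.3 in the saline hippocampus (median 249.6) and 423.8 to 693.2 in the saline neocortex (median 533.4). These groups did not overlap, and the fold change was -1.09 ± 0.19 (limma adjusted p = 5.34e-05). With kainate it was -0.57 ± 0.20 (limma adjusted p = 0.0607) and with nicotine -0.27 ± 0.19 (limma adjusted p = 0.48).

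Protein kinase C isoforms also went both ways. Prkcd and Prkce, which need diacylglycerol but not calcium, were higher in the hippocampus. Prkcd ran from 1357 to 2113 in hippocampus (median 1604) and from 815.4 to 1254 in neocortex (median 1037), with no overlap. Its log2 fold changes were 0.77 ± 0.13, 0.75 ± 0.12 and 0.64 ± 0.12 with kainate, nicotine and saline (limma adjusted p = 3.22e-05, 1.08e-05 and 0.000148), and its other probe set gave 0.74, 0.75 and 0.71. Prkce ran from 3089 to 5346 in hippocampus (median 3877) and from 2242 to 3070 in neocortex (median 2764), with fold changes of 0.28 ± 0.10, 0.78 ± 0.09 and 0.43 ± 0.09 (limma adjusted p = 0.0473, 2.82e-08 and 0.000655). Its regions did not overlap either. Its other probe set was called in none of the 3 treatments, at 0.13, 0.25 and 0.57 (limma adjusted p = 0.789, 0.559 and 0.0565). The Prkce call with kainate was kept only without kainate hippocampus array 4, and leaving out any of the other 9 arrays in turn gave limma adjusted p-values of 0.0598 to 0.128. With the control cluster as a block it was 0.23 (limma adjusted p = 0.0899).

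Prkcb, the calcium-dependent isoform that fell with kainate, was lower in the hippocampus in every treatment. It ran from 13200 to 21980 there (median 17960) and from 19450 to 25400 in neocortex (median 22150). The pooled ranges overlapped, but within each treatment the regions did not. The log2 fold changes were -0.53 ± 0.07, -0.38 ± 0.07 and -0.22 ± 0.07 with kainate, nicotine and saline (limma adjusted p = 9.62e-07, 7.7e-05 and 0.0209), and the other probe set gave -0.57, -0.43 and -0.39, each called. The saline call was lost without saline neocortex array 6 (0.0571) or saline hippocampus array 6 (0.0561). Prkcz, the atypical isoform that needs neither calcium nor diacylglycerol, ran from 2693 to 4358 in hippocampus (median 3239) and from 3746 to 4844 in neocortex (median 4149). Only its nicotine groups did not overlap. Its fold changes were -0.29 ± 0.10, -0.35 ± 0.09 and -0.32 ± 0.09 (limma adjusted p = 0.0445, 0.00815 and 0.0163). Its dimmer probe sets were not called, at 0.04, -0.24 and -0.29 for the brighter of them and -0.30, -0.73 and -0.31 for the other. The kainate call on Prkcz was lost without any of 8 arrays, all but kainate neocortex array 2 and kainate hippocampus array 3, with limma adjusted p-values of 0.061 to 0.12, and the saline call without saline hippocampus array 1 (0.0688) or with the control cluster as a block (-0.25, 0.0717).

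Subunits of protein kinase A differed while others of the same enzyme did not pass the test. Prkacb, the beta catalytic subunit, and Adcyap1 were the genes with the lower hippocampal arrays fully separated, and their upstream stretches are shown for comparison with those of the kainate genes. Prkacb lies at chr3:146812947-146813196 on the minus strand, in the only 1 of its 3 windows with a core CRE motif, and Adcyap1 at chr17:93198767-93199016 on the plus strand, from 1 of 2 overlapping windows. Build, length and capitals are as above, and the Prkacb window was chosen for its motif in the same way.
Prkacb: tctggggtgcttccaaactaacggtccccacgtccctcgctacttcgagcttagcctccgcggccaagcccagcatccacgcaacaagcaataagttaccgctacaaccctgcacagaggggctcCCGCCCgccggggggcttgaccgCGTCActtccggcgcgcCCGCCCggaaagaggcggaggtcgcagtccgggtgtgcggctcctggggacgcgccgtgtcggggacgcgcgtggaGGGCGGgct
Adcyap1: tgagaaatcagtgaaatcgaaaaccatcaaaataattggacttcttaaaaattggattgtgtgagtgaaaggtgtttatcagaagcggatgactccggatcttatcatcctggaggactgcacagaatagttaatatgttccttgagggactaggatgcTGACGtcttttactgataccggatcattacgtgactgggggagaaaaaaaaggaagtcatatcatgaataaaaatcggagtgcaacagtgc
Prkacb has 1 core CRE motif, 102 bases before the start, and 3 GC boxes, and Adcyap1 has 1, 91 bases before the start, and no GC box. Neither window holds the full palindrome. Among the other genes called in all 3 treatments, no listed window of Camk2b, Prkcd, Itpkb, Pde1b or Prkcb held a core CRE motif. Gucy1b1, Prkar1b and Prkcz had it in at least 1 window, and no window was listed for Prkce.

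Prkacb ran from 6898 to 10730 in hippocampus (median 8535) and from 11580 to 17550 in neocortex (median 14000). No hippocampal array reached a neocortical one. The log2 fold changes were -0.70 ± 0.10, -0.68 ± 0.09 and -0.74 ± 0.09 with kainate, nicotine and saline (limma adjusted p = 4.89e-06, 1.59e-06 and 3.4e-07). Prkar1b, a regulatory subunit found mainly in neurons, ran from 12490 to 18810 in hippocampus (median 14530) and from 15810 to 26710 in neocortex (median 20760). Of its groups within a treatment only those with kainate overlapped, and its fold changes were -0.53 ± 0.11, -0.51 ± 0.10 and -0.52 ± 0.10 (limma adjusted p = 0.00057, 0.000312 and 0.000209). Its other probe set gave -0.77, -0.81 and -1.06, each called. The alpha catalytic subunit Prkaca gave 0.10 ± 0.11, 0.16 ± 0.10 and 0.13 ± 0.10, and the widely expressed regulatory subunit Prkar1a -0.13 ± 0.07, 0.01 ± 0.06 and -0.02 ± 0.06, none called.

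On the cyclic nucleotide side, Gucy1b1 ran from 690 to 1605 in hippocampus (median 1206) and from 1309 to 2667 in neocortex (median 1962). Its regions did not overlap within any treatment. The log2 fold changes were -0.86 ± 0.18, -0.77 ± 0.16 and -0.71 ± 0.16 with kainate, nicotine and saline (limma adjusted p = 0.000564, 0.000847 and 0.002). Pde1b, a phosphodiesterase that calmodulin activates, ran from 2616 to 3759 in hippocampus (median 3285) and from 3353 to 4877 in neocortex (median 4393), with fold changes of -0.30 ± 0.10, -0.52 ± 0.09 and -0.31 ± 0.09 (limma adjusted p = 0.0398, 7.99e-05 and 0.0219). Its saline groups overlapped and the others did not. The kainate call on Pde1b was lost without kainate neocortex array 1, 3 or 4 or kainate hippocampus array 1, 2, 4 or 5 (0.0549 to 0.0981). The saline call was lost without saline neocortex array 1, 2 or 3 or saline hippocampus array 2 or 5 (0.0551 to 0.091), or with the control cluster as a block (-0.25, 0.0755). The other 7 tested phosphodiesterases were called in no treatment, and of the 7 adenylyl cyclases only Adcy7 was called, with kainate.

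Adcyap1, the neuropeptide whose receptor raises cyclic AMP, had the largest region difference of the 49 genes in each treatment. It ran from 124.4 to 464.6 in hippocampus (median 325.2) and from 482.8 to 1213 in neocortex (median 1031). The regions did not overlap. Its hippocampal level was 2.79-fold lower with kainate, 3.04-fold lower with nicotine and 2.45-fold lower with saline (log2 fold changes -1.48 ± 0.26, -1.61 ± 0.24 and -1.30 ± 0.24, limma adjusted p = 8.94e-05, 6.69e-06 and 0.000178). The receptor gene Adcyap1r1 gave 0.20 ± 0.19, 0.15 ± 0.17 and -0.13 ± 0.17 and was not called.

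**Figure D5:**
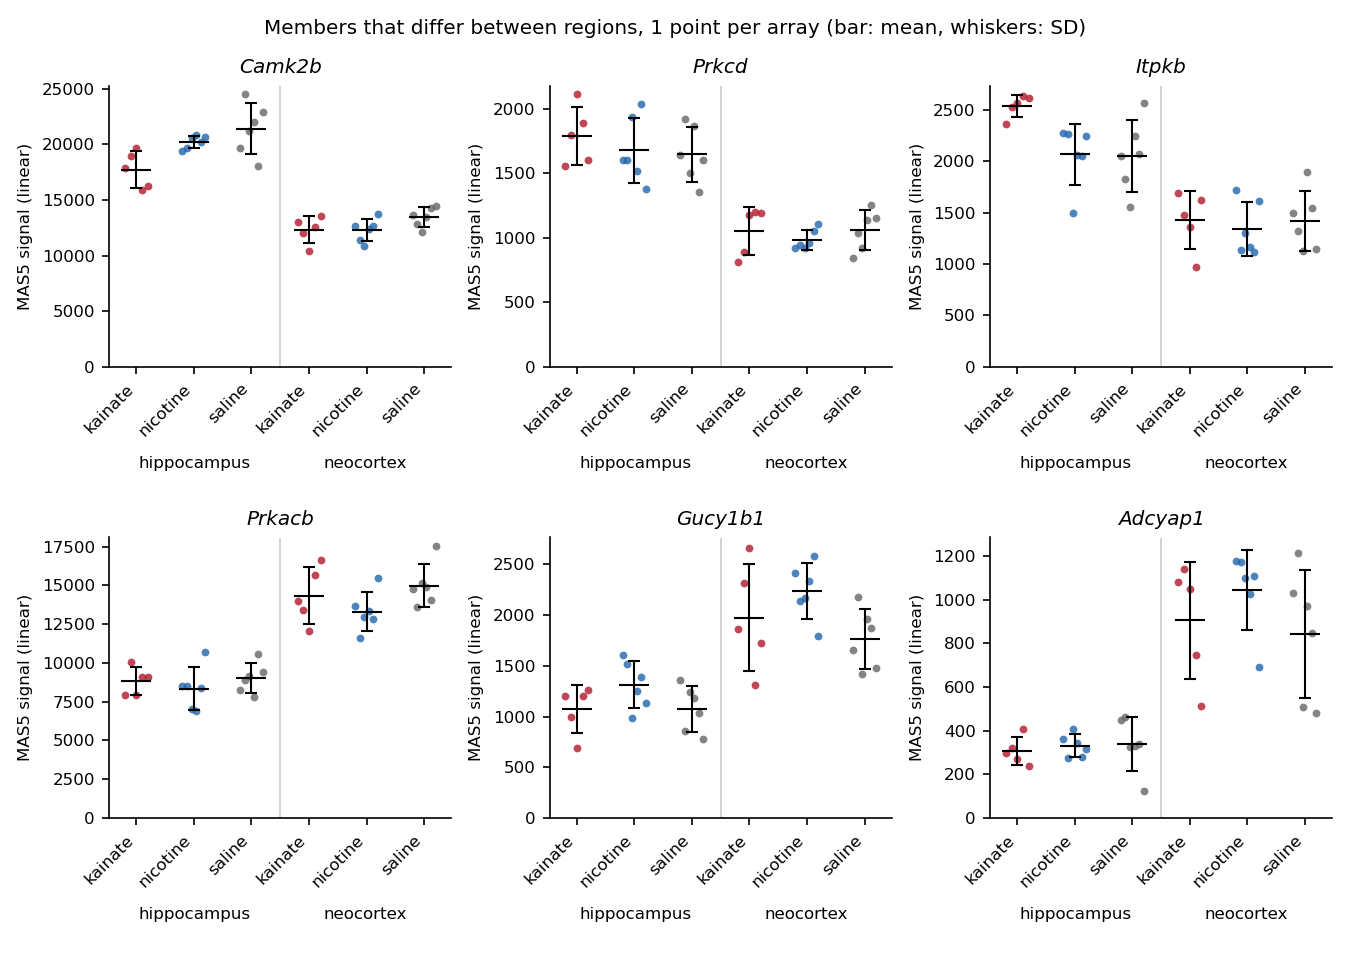
Signals of 6 genes on linear axes from 0 (1 point per array, bar for the mean, whiskers for the SD) in the kainate, nicotine and saline groups of hippocampus and neocortex. Camk2b, Prkcd and Itpkb are higher in the hippocampus, and Prkacb, Gucy1b1 and Adcyap1 lower, in each treatment.

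In the inositol branch, Itpkb, the kinase that turns inositol trisphosphate into its tetrakisphosphate, ran from 1499 to 2636 in hippocampus (median 2248) and from 973.4 to 1896 in neocortex (median 1362). Its kainate groups did not overlap, while the nicotine and saline groups did. The log2 fold changes were 0.85 ± 0.15, 0.62 ± 0.14 and 0.53 ± 0.14 with kainate, nicotine and saline (limma adjusted p = 9e-05, 0.00172 and 0.00818). Plcb1 was not called by its brightest probe set, at 0.04, 0.16 and -0.12 with kainate, nicotine and saline. A dimmer Plcb1 probe set gave -0.39 ± 0.14, -0.37 ± 0.13 and -0.67 ± 0.13, called with saline (limma adjusted p = 0.0603, 0.0659 and 0.000304). The dimmest gave -0.57 ± 0.19, -0.73 ± 0.17 and -0.47 ± 0.17, called with kainate and nicotine (limma adjusted p = 0.0432, 0.00369 and 0.0788). Both dimmer probe sets thus had negative values in all 3 treatments, while those of the brightest lay on both sides of 0.

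In the reported fits Camk2a and Camk4 were called with saline alone, but both were called with kainate under some alternatives. Ppp3ca was also called with saline alone. It had 10810 to 12150 in the saline hippocampus (median 11740) and 7575 to 9983 in the saline neocortex (median 8534), with no overlap and a fold change of 0.45 ± 0.11 (limma adjusted p = 0.00627). It gave 0.03 ± 0.13 with kainate and 0.18 ± 0.11 with nicotine. Ppp3r1 was called with nicotine alone, at 27020 to 29190 in hippocampus (median 27980) and 19690 to 27470 in neocortex (median 21960), which overlapped (0.29 ± 0.08, limma adjusted p = 0.0176). That call was lost without nicotine neocortex array 3 (0.25, limma adjusted p = 0.0648).

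Adcy7, Itpr2 and Ppp1r14b, an inhibitor of protein phosphatase 1 that protein kinase C activates, were called with kainate alone. Adcy7 had 319.2, 489.3, 299.2, 481.6 and 466.5 in the kainate hippocampi and 321.1, 260, 119.4, 45.8 and 197.2 in the kainate neocortices. These overlapped, at 1.25 ± 0.43 (limma adjusted p = 0.0499), and the call was lost in 8 of 10 fits that left out an array (up to 0.203), all but those without kainate neocortex array 1 or 2. It was also lost with the control cluster as a block (1.15, limma adjusted p = 0.0895). Itpr2 had 984.1, 1095, 594.7, 884.8 and 927 in hippocampus and 546.6, 809.4, 648.2, 427.2 and 512.8 in neocortex, at 0.60 ± 0.20 (limma adjusted p = 0.042). Its call was lost in 7 of 10 such fits (up to 0.129), all but those without kainate neocortex array 2 or 3 or kainate hippocampus array 3, and its other tested probe set was also called (1.10 ± 0.37, limma adjusted p = 0.0424). Ppp1r14b ran from 1277 to 1793 in the kainate hippocampi (median 1465) and from 792.6 to 1082 in the kainate neocortices (median 1039), with no overlap (0.63 ± 0.13, limma adjusted p = 0.000692). The microglial marker sum of the kainate hippocampi, 49260 to 78510, stood beside 19640 to 24270 in the kainate neocortices. Astrocyte sums were 152100 to 184700 beside 80960 to 94780, and oligodendrocyte sums 53850 to 75000 beside 43490 to 49100. Neuronal sums were 74420 to 85550 beside 96730 to 102300. The part of any of these markers in the calls was not tested.

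A list of 63 other genes of the same pathways held 41 measured and 37 tested genes. In the kainate hippocampus 3 of the 37 fell and none rose, beside 0.955% lower and 1.84% higher of all probe sets. These were Ppp1cc, the gamma catalytic subunit of protein phosphatase 1 (-0.42 ± 0.09, limma adjusted p = 0.00698), Atp2a2, the calcium pump of internal stores (-0.35 ± 0.09, limma adjusted p = 0.0358), and Ryr1, a calcium release channel (-0.76 ± 0.20, limma adjusted p = 0.0361). None of the 37 was called with kainate in the neocortex or with nicotine in either region. Between regions 5 were higher and 5 lower in hippocampus with kainate, 4 and 6 with nicotine, and 6 and 5 with saline, beside 13%, 9.61% and 10.5% of all probe sets called. Hpca, the calcium sensor hippocalcin, was higher at 0.77, 1.23 and 1.23 with kainate, nicotine and saline, and Ryr3, another release channel, at 0.69, 1.10 and 1.16. Atp2b2, a calcium pump of the cell surface, was lower at -1.11, -1.12 and -1.33, and Nrgn, the calmodulin-binding protein neurogranin, at -0.86, -0.45 and -0.53. Each of these was called in all 3 treatments.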

How the data were processed

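Total RNA (12 µg per sample, per the labels' protocols) was labelled with biotin and hybridised to Affymetrix arrays. The authors deposited a linear signal intensity for each probe set. MAS5 is named, without a version, per the submitters' processing notes. MAS5 scales each array to a common level, so a change is relative to the rest of its array. Of 12488 probe sets, 66 controls were left out. limma 3.58.1 (lmFit, and eBayes with a trend on level), run in R 4.3.3, was fitted to log2(signal + 16) of all probe sets above the 30th percentile, with Benjamini-Hochberg adjustment over 8695 probe sets. Drug comparisons used the 17 arrays of a region, and region comparisons and differences between regions used all 34. Precision is set by how many arrays a group has. The fit was tested on simulated data. Figures were drawn with matplotlib 3.10.9 in Python 3.11.15.

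The genes, the lists and the tests were chosen with earlier results of these data known. Any of the 58 genes could be named; those called in a comparison are given with full statistics, and where none was called, those with the smallest adjusted p-values. Other pathway genes are named only where called, with some given only as counts. Alternatives changed the pseudocount, filter, scaling, intensity trend, blocks and arrays used. Arrays were grouped into 6 clusters by their 66 control probe sets as a technical check. The replicate numbers did not meet the bar for pairing: correlations of same-numbered arrays ran from -0.17 to 0.28 and did not all exceed 0.1 in any comparison. Some numbers share a control cluster within a region: hippocampal arrays 1, 4 and 5, and neocortical arrays 1, 2 and 4, each lay in 1 cluster across the 3 treatments.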

Additional observations from a re-analysis of the deposited data

Results flagged for a closer look

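Among 18 genes called in any comparison, 108 combinations of gene and group were examined for an array far from the others of its group, and 8 held one. Chance flags about 1 in 20 groups. Itpr2 had 958.7 in nicotine hippocampus 5, against 485.4 to 614.4 in the other nicotine hippocampi. Itpkb had 1499 in nicotine hippocampus 3, against 2047 to 2278 in the others of its group. Camk4 had 196 in kainate neocortex 2, against 395.6 to 474.6. Adcyap1 had 690.2 in nicotine neocortex 6, against 1027 to 1179, and 124.4 in saline hippocampus 6, against 325.2 to 464.6. Pde1b had 3686 in nicotine neocortex 6, against 4494 to 4877. Prkce had 2611 in kainate neocortex 3, against 2921 to 2992, and 2242 in saline neocortex 3, against 2743 to 3070. Nicotine neocortex 6 was the only array far from its group in more than 1 gene.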

How the results depend on the processing

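The counts of called genes were 0 for kainate in the neocortex, for nicotine in both regions and for both differences between regions, and they were 0 under every alternative run. For kainate in the hippocampus 3 genes were called in the reported fit, 5 with each array centred on its median (1 higher and 4 lower), 1 with quantile normalization (Prkcb), 6 with all 34 arrays in the fit and 0 in the largest control cluster, which leaves 3 residual degrees of freedom. Leaving out 1 array gave 2 to 5, with 5 without kainate hippocampus array 3. Centring moved the median log2 fold change of all probe sets to -0.10 and the calls over all probe sets to 130 higher and 313 lower, against 160 higher and 83 lower as reported. For kainate against saline in the hippocampus, Camk2b, Itpr2, Ppp1r18 and Prkar1a were called only under alternatives. The region difference with kainate was called for Camk2a under 5 alternatives. For Camk4 it was called under 4, and in 1 fit with 1 array left out. Region calls made only under alternatives also included Camk2d, Pde1a and Ppp1r17 with kainate, Ppp1r1a with nicotine and Adcy9 with saline. Between regions, 14 genes were called with kainate as reported, 9 with no filter, 9 in the largest control cluster and 9 to 14 with 1 array left out (9 without kainate neocortex 4, kainate hippocampus 1 or kainate hippocampus 5), and centring turned 7 higher and 7 lower into 4 and 10. With nicotine 12 were called, 7 in the largest cluster and 11 to 13 with 1 array left out. With saline 14 were called, 7 in the largest cluster and 12 to 14 with 1 array left out. With the replicate number as a replicate block the counts were 3 for kainate in the hippocampus and 16, 12 and 14 between regions with kainate, nicotine and saline; the numbers share no known animal or day. With the control cluster as a block the counts were 4 for kainate in the hippocampus and 14, 13 and 11 between regions with kainate, nicotine and saline. It ended the region calls of Adcy7 (adjusted p = 0.0895) and Prkce (0.0899) with kainate and of Camk2a (0.075), Pde1b (0.0755) and Prkcz (0.0717) with saline. Camk2a with saline was also lost with no filter (0.0585), median centring (0.0567), no intensity trend (0.0635), only its own groups in the fit (0.182) and without the arrays outside the 3 large control clusters (0.352). Between regions, median centring also ended the saline calls of Pde1b (0.0811) and Prkcb (0.0885) and the kainate calls of Adcy7 (0.068), Itpr2 (0.0956) and Prkce (0.226). No filter ended the kainate calls of Adcy7 (0.0666), Itpr2 (0.0585), Pde1b (0.0516), Prkce (0.0603) and Prkcz (0.0576). Quantile normalization ended those of Adcy7 (0.0766), Itpr2 (0.0759) and Prkcz (0.0801), and that of Ppp3r1 with nicotine (0.0696). The fits that leave out arrays by control cluster were chosen after seeing the data. No call changed sign under any alternative. Genes below the filter level, such as Gucy2c, were not tested with the filter.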
